A study of Mus musculus with 15 samples.

Results

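The subject is the change in gene expression with age in hematopoietic stem cells (HSCs), the bone-marrow cells that renew themselves and give rise to all blood lineages. Libraries of 5 aged control samples (18 months) were set against those of 5 young control samples (3 months), which are 10 of the 15 libraries of the study. The other 5 carry the label aged Thbs1 knockout (18 months) and enter through the shared estimate of spread and the mean level that decides which genes were tested. HSCs were purified by flow cytometry from mouse bone marrow, and RNA was made into libraries from 2 ng of total RNA with a low-input full-length kit. The labels name no strain, sort markers or allele of the controls, and do not state whether each sample is its own animal. The p-values thus reflect sample-to-sample spread that may be technical. Of 20696 genes in the table, 11345 had a mean of at least 1 FPKM (fragments per kilobase of exon, scaled to library size) over the 15 libraries and were tested, and 9351 were not.

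HSCs of old mice are known to be more numerous in the marrow and to rebuild blood less well after transplantation than young ones. Their output is known to lean toward platelets and myeloid cells and away from lymphocytes. Most HSCs rest outside the cell cycle, and contact with niche cells and matrix through adhesion molecules helps to hold them there.

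Each column was assigned to its group by the sample title in the table's second header line. The first header line holds library names made of a letter, the sex and a running number. Under the titles the letters A and B coincided with young and aged controls. A different pairing of names and titles stands in the series' sample descriptions: it gave the same sample for 5 of the 15 columns and another sample for 10. All 10 also moved to another group, and aged controls 4 and 5 carry the knockout label there. By library name that knockout group is all female. Thbs1 itself does not settle which pairing is right. Under the titles it was at 2.53, 1.69, 17.89, 12.69 and 17.25 FPKM in replicates 1 to 5 of the group with the knockout label, at 0.20, 0.01, 0.62, 8.75 and 4.90 in aged controls 1 to 5 and at 0.76, 0.70, 13.38, 2.42 and 3.95 in young controls 1 to 5. It was thus not lower under the knockout label, nor was it when columns were grouped through the descriptions, and the titles may be wrong for some columns. Every direction below rests on the titles. Grouped through the descriptions, limma called 0 genes (642 had an unadjusted p under 0.05). All 68 changed genes followed through the alternatives took the opposite sign. As young, that grouping takes young controls 1 and 2 and aged controls 1 to 3, all male by library name. As aged controls it takes young controls 3 to 5 and labelled knockouts 1 and 2. Genes picked for a change under the titles thus tend to reverse there, so the reversal does not show which pairing is right. Library names gave 2 male and 3 female young controls (males are replicates 1 and 2) and 3 male and 2 female aged controls (males are replicates 1 to 3). Xist lay at 2.50 to 5.81 FPKM in the libraries named female and at most at 0.02 in those named male, so the names matched the sex in all of them. Because males carry the lower replicate numbers, sex and anything else that follows those numbers cannot be told apart.

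Reads in genes, worked out from the steps of the deposited FPKM, ranged from 16650000 to 28620000 over the 10 control libraries. Aged controls 4 and 5, the female ones, stood apart from aged controls 1 to 3. Their median correlation across genes was 0.965 and 0.957 with their own group and 0.968 and 0.972 with the young controls. The first principal component, with 52.7% of the variance, placed aged controls 1 to 3 at 30.26 to 39.19, aged controls 4 and 5 at -2.19 and -7.95, and the young controls at -29.92 to -3.07. The spread was wider in the aged group, with a median SD of 0.252 on the log2(FPKM + 1) scale against 0.186 in young controls. It was 0.142 in aged controls 1 to 3, all male, and 0.149 in young controls 3 to 5, all female. Some counts below are also given without aged controls 4 and 5, while others that move with these libraries are given only with them.

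**Figure D1:**
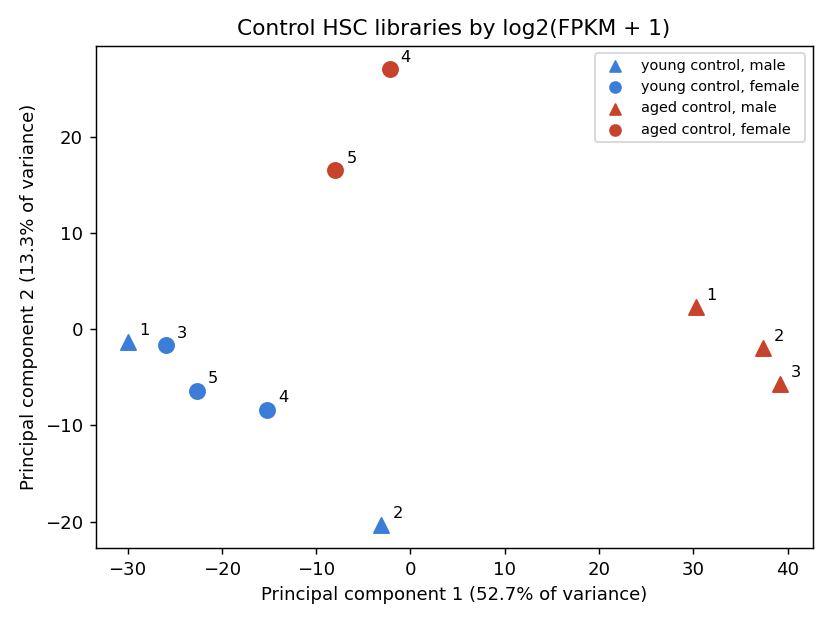
Principal components 1 and 2 of the 10 control libraries from log2(FPKM + 1) of the tested genes (numbers are replicates, triangles male, circles female). Aged controls 1 to 3 lie at the right, while aged controls 4 and 5 lie within or next to the range of the young controls on component 1 and highest on component 2.

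The sorted cells carried the defining genes of HSCs, while the marker lists of mature cells were mixed. All 14 HSC markers were above 1 FPKM in at least 1 control, and their summed level was 1096 to 1196 FPKM in young and 1360 to 1654 in aged controls. The B-cell gene Ms4a1, the T-cell genes Cd3d and Cd3g, the macrophage genes Adgre1 and Csf1r and the stromal genes Lepr and Col1a1 were at most at 0.37 FPKM in every control. Among markers of other blood cells, 8 of 10 B-cell, 6 of 11 T and NK cell, 11 of 15 macrophage and dendritic cell, 7 of 12 neutrophil, 4 of 10 mast cell and basophil and 9 of 14 endothelial and stromal genes were below 1 FPKM in every control. Other members of these lists, chosen after their values were seen, were higher: Cd79b lay at 34.17 to 63.83 FPKM over the controls, Nkg7 at 44.41 to 117.11, Cd68 at 7.02 to 12.08 and Tie1 at 55.56 to 89.18. The T-cell gene Trac reached 0.39 FPKM in young and 2.30 in aged controls, and the macrophage gene C1qb 2.48 and 1.32. The neutrophil genes S100a8 and S100a9 reached 7.08 and 9.10 FPKM in young controls. Fcer1a of mast cells and basophils, which was not called, reached 1.33 FPKM in young and 5.76 in aged controls. The summed level over young and aged controls was 35.94 to 66.13 FPKM for the B-cell, 62.90 to 142.16 for the T and NK cell and 73.11 to 107.36 for the endothelial and stromal list. Their part in the age results was not tested. Klrb1c, a natural killer cell receptor in the T and NK cell list, rose from 2.66 ± 0.75 to 17.8 ± 5.0 FPKM (log2 change 2.33, limma adjusted p = 8.69e-05), while Ncr1 was at most at 0.07 FPKM in any control. Megakaryocyte markers summed to 414 to 532 FPKM in young controls and 313 to 2082 in aged controls, and erythroblast markers to 94.3 to 196 and 81.5 to 400, the highest values belonging to aged control 5. In bulk samples fewer cells of a type and less RNA per cell cannot be told apart.

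With age, 501 of 11345 genes changed (4.42%; limma adjusted p under 0.05), 361 upward (3.18%) and 140 downward (1.23%). The rise was also the larger side by size: 169 genes rose and 38 fell by at least 2-fold on the log2(FPKM + 1) scale, and 25 rose and 1 fell by at least 4-fold. The balance depends on the fit: 631 rose and 380 fell with the 10 control libraries alone, and 2480 rose and 2917 fell with array quality weights. The libraries of the groups did not overlap for 304 of the 361 that rose and 96 of the 140 that fell; over all tested genes this held for 4.57% with aged higher and 2.59% with aged lower (7.16% in all). All 361 and all 140 had the same sign in male and in female libraries taken alone. They were called from these same libraries, which strongly favours equal signs, so this is no separate check. Leaving out 1 control at a time gave 311 to 943 genes. The count was 943 without aged control 5, 314, 317 and 311 without aged controls 1, 2 and 3, and 330 and 322 without young controls 1 and 3. A total of 221 of the rises and 52 of the falls passed the test in all 10 omissions. Without aged controls 4 and 5, 946 genes rose (8.34%) and 1045 fell (9.21%), and these held 357 of the 361 rises and 132 of the 140 falls.

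Promoters are shown for 3 of the leading genes below whose annotated start is the same in RefSeq and GENCODE M21 within 10 bases. Each run gives the 250 bases before the start on the gene's strand, from RefSeq (GRCm38.p6), and capitals mark a match to 1 of 6 motifs searched on both strands. Selp was at chr1:164115014-164115263 (plus strand), Nupr1 at chr7:126625471-126625720 (minus strand) and Flt3 at chr5:147400490-147400739 (minus strand). The capitals in Selp are an AP-1 motif and those in Nupr1 a STAT motif, and Flt3 held no match.
Selp: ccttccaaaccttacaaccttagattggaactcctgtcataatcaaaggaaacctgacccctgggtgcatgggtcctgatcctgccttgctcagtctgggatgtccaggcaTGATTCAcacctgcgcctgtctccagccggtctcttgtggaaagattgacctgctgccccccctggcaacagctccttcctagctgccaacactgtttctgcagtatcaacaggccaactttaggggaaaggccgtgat
Nupr1: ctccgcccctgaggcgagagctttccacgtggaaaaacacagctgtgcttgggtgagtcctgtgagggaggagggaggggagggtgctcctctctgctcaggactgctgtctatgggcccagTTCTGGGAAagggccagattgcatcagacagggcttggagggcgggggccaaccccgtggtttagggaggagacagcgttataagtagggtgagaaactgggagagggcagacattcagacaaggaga
Flt3: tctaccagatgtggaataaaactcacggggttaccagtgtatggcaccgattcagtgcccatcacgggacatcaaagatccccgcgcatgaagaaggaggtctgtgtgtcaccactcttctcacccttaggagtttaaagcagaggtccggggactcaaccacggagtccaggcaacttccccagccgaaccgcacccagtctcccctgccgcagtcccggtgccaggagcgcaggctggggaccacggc

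Of 10785 windows that matched tested genes by symbol, 6885 had agreeing starts, 229 of them of genes that rose and 79 of genes that fell. The STAT motif (TTCNNNGAA) stood in 8.7% of windows of risen genes, 6.3% of fallen and 5.7% of all. For the ETS motif (CCGGAAGT) the shares were 4.4%, 0.0% (0 of 79) and 6.5%. The E2F motif, searched as TTTCCCGC and also as TTTGGCGC, gave 0.9%, 1.3% and 2.5%. The RUNX motif (TGTGGTT) gave 4.8%, 7.6% and 3.3%, and the AP-1 motif (TGANTCA) 5.2%, 7.6% and 4.1%. The GATA motif, AGATAA with either an A or a T as its first letter, gave 12.7%, 10.1% and 9.8%. These shares are descriptions, and a match is not a bound site.

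Some of the largest rises started from low levels in young cells. Others did not, such as Nupr1 and Clu with young means of 13.9 and 18.0 FPKM. The filter took the mean over 15 libraries, so a gene low in young cells could pass it through the other libraries. Cldn5, a claudin of tight junctions, was at 3.09, 3.13, 3.36, 2.93 and 2.28 FPKM in young controls 1 to 5 and at 86.3, 95.3, 89.6, 32.4 and 19.6 in aged controls 1 to 5. The lowest aged library was above every young one, and aged controls 4 and 5 were below the other 3. Cldn5 rose by 3.81 on the log2(FPKM + 1) scale (SE 0.36, limma adjusted p = 3.23e-06), from 2.96 ± 0.41 to 64.6 ± 35.7 FPKM (SD, n = 5 each). Gpr183, a receptor for oxysterols that guides the movement of immune cells, lay at 1.03, 0.92, 0.61, 0.88 and 1.38 FPKM in young and 26.01, 32.8, 27.9, 31.8 and 12.3 in aged controls. Its change was 3.73 (SE 0.32, limma adjusted p = 1.42e-06). Rcvrn, which encodes the calcium sensor recoverin, went from 0.10 to 0.52 FPKM in young to 8.57 to 17.3 in aged controls (log2 change 3.44, SE 0.25, limma adjusted p = 1.60e-07). Clu, the secreted chaperone clusterin, was at 16.3, 20.1, 17.3, 20.8 and 15.6 FPKM in young and 161, 145, 146, 118 and 103 in aged controls. Clu rose by 2.83 (SE 0.16) and had the smallest p of the genes named here (limma adjusted p = 1.16e-08). Each of these 4 genes passed the test in all 10 omissions.

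**Figure D2:**
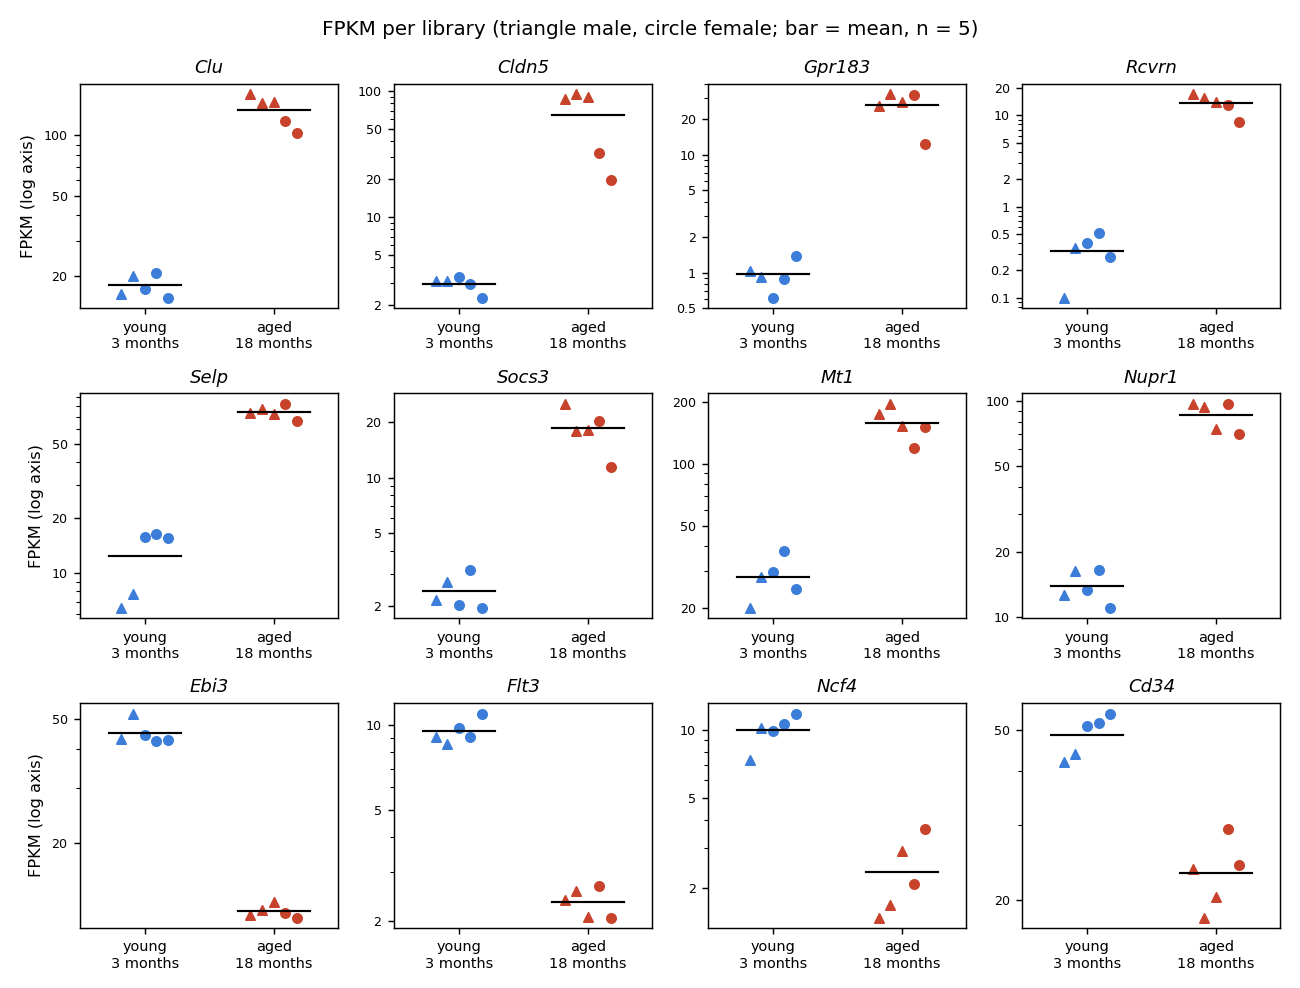
FPKM of 12 genes in each young and aged control library on log axes with their own ranges (triangles male, circles female, bars the mean of 5). The libraries of the groups do not overlap for any of the 12, and aged controls 4 and 5 are the lowest aged libraries for Cldn5 and Clu.

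Of the 33 tested genes of matrix and secreted proteins, 11 rose and 1 fell, with a median log2 change of 0.33 against -0.02 over all tested genes. This and every other gene list was drawn up with earlier results of these data known, and this one holds several of the largest rises. Its count is thus a description and no evidence about matrix genes as a group. Over all tested genes 3.18% rose and 1.23% fell, which is the share to set beside each list count here and below. Sbspon, a matrix protein with somatomedin B and thrombospondin domains, went from 0.67 ± 0.28 to 19.3 ± 8.55 FPKM (log2 change 3.46). Zg16, a secreted lectin, lay at 0.25 to 1.46 FPKM in young and 12.7 to 24.6 in aged controls (3.46). Muc1, a membrane mucin, lay at 0.53 to 1.35 and 9.85 to 26.5 FPKM (2.98), with the highest value in aged control 4. Matn4, the matrix protein matrilin 4, was at 0.85 to 1.64 FPKM in young controls, at 28.2 to 32.0 in aged controls 1 to 3 and at 8.33 and 6.51 in aged controls 4 and 5. Its change was 3.94 in male and 1.81 in female libraries; Matn4 overlaps Rbpjl by position and the counting strand is not given, so reads may be shared. Vwf, the von Willebrand factor that tethers platelets, rose from 19.6 ± 1.7 to 72.1 ± 12.9 FPKM (1.82, SE 0.23, limma adjusted p = 9.04e-05). The member that fell was Col4a2, a basement-membrane collagen, from 14.6 ± 2.6 to 7.41 ± 1.75 FPKM, and it lost the test in 8 of 10 omissions (largest limma adjusted p = 0.12).

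Of 32 tested genes of cell adhesion and junctions, 8 rose and 1 fell, where 3.18% of all tested genes rose and 1.23% fell. Selp, the P-selectin of platelets and endothelium, was at 6.52 and 7.71 FPKM in the male young controls, 15.8, 16.4 and 15.6 in the female ones, and 73.6, 77.1, 72.4, 82.7 and 66.3 in aged controls. Its change of 2.58 (SE 0.26, limma adjusted p = 9.77e-06) was 3.22 in males and 2.15 in females. Jam2, a junctional adhesion molecule, rose by 1.43, and Epcam, an epithelial adhesion molecule, by 1.09, from 2.06 to 2.44 FPKM in young to 2.76 to 10.5 in aged controls. Of 14 tested integrin genes, 4 rose and 1 fell. Itgb3, the beta 3 chain found on platelets, lay at 17.2, 18.9, 17.3, 20.3 and 20.8 FPKM in young and 77.7, 71.8, 67.3, 65.9 and 72.8 in aged controls (1.86, SE 0.21, limma adjusted p = 2.59e-05), so that aged controls 4 and 5 did not stand apart for it. Its partner chain Itga2b was at 63.4 FPKM in aged control 4, within the young range of 57.4 to 67.6, against 145 to 192 in the other aged controls, and lost the test in 9 of 10 omissions (largest limma adjusted p = 0.10). Itgb5, another beta chain, fell from 2.26 ± 0.46 to 0.36 ± 0.09 FPKM.

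Receptors that read the niche included 6 risen and 1 fallen of 24 tested, where 3.18% of all tested genes rose and 1.23% fell. Ramp2, a partner of the receptor for adrenomedullin, rose from 2.21 to 3.31 FPKM in young to 12.5 to 38.1 in aged controls (2.59). Agtr1a, an angiotensin II receptor, rose by 1.82 and Cysltr2, a leukotriene receptor, by 1.21. Among 31 tested HSC surface genes 10 rose and 2 fell. Cd38, an NAD hydrolase at the cell surface, rose by 1.53, and Gprc5c, an orphan receptor of dormant HSCs, by 1.69. Procr, the protein C receptor used to sort HSCs, was at 43.3 to 63.0 FPKM in young and 133, 133, 119, 109.5 and 60.9 in aged controls (log2 change 1.005, SE 0.21, limma adjusted p = 0.00662); aged control 5 lay inside the young range. Ly6a, which encodes the stem-cell antigen Sca-1, rose by 0.88, from 155 ± 27 to 284 ± 25 FPKM.

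The 2 surface genes that fell, Cd34 and Flt3, are used to tell progenitors from long-term HSCs in the mouse. Flt3, a receptor for a growth factor of early lymphoid and myeloid progenitors, was at 9.07, 8.57, 9.77, 9.10 and 11.02 FPKM in young and 2.38, 2.56, 2.07, 2.68 and 2.06 in aged controls. It fell by 1.65 (SE 0.25, limma adjusted p = 0.00043), and aged controls 4 and 5 did not stand apart from the others. Cd34 lay at 42.0, 44.0, 51.1, 51.9 and 54.7 FPKM in young and 23.6, 18.1, 20.3, 29.2 and 24.1 in aged controls (-1.06, SE 0.18, limma adjusted p = 0.0012). The genes of lymphoid priming counted 1 rise and 2 falls among 19 tested, with a median of -0.28. Over all tested genes 3.18% rose and 1.23% fell, so counts this small say little about the list. Besides Flt3 it was Rnase6, a secreted ribonuclease, that fell, from 39.4 ± 5.4 to 13.4 ± 4.7 FPKM. Cd53, a tetraspanin of leukocytes, rose by 1.22.

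Of 6 tested NADPH oxidase genes, which make the oxidative burst of phagocytes, 2 fell. Ncf4, a cytosolic subunit, was at 7.39, 10.2, 9.86, 10.6 and 11.8 FPKM in young and 1.48, 1.68, 2.93, 2.08 and 3.65 in aged controls (-1.73, SE 0.21, limma adjusted p = 4.68e-05). Ncf1, another subunit, fell from 2.99 ± 0.60 to 0.83 ± 0.31 FPKM. Of 24 tested genes of myeloid priming, 4 fell and 2 rose, where 1.23% of all tested genes fell and 3.18% rose. Tyrobp, an adaptor of activating receptors, fell by 1.46 and Ctss, the lysosomal protease cathepsin S, by 1.57. Prtn3, the granule protease proteinase 3, rose in contrast from 102 ± 16 to 295 ± 79 FPKM (1.49, SE 0.23), and overlaps Plppr3 by position. Cebpb, a transcription factor of myeloid cells, was at 12.5 to 20.6 FPKM in young controls, at 35.6 to 40.6 in aged controls 1 to 4 and at 18.2 in aged control 5, and lost the test in 8 of 10 omissions (largest limma adjusted p = 0.09).

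Of 29 tested genes of megakaryocytes and platelets, 5 rose and 2 fell, where 3.18% of all tested genes rose and 1.23% fell. Selp, Itgb3, Vwf and Gp1bb were among the rises, and Ctla2a and Ppbp fell. Gp1bb, a chain of the platelet receptor for von Willebrand factor, was at 11.29 to 15.82 FPKM in young controls, at 14.29 in aged control 4 and at 25.04 to 51.8 in the other aged controls, so the groups overlapped. It lost the test in 3 of 10 omissions (largest limma adjusted p = 0.07) and overlaps Septin5 by position, so reads may be shared. Ctla2a, an inhibitor of cysteine proteases, was at 184, 180, 146, 144 and 114 FPKM in young and 55.3, 56.3, 47.0, 66.0 and 62.2 in aged controls (-1.39, SE 0.18, limma adjusted p = 8.61e-05). Ppbp, a platelet chemokine, fell from 9.0 to 26.4 FPKM in young to 2.30 to 12.6 in aged controls, and those ranges overlapped. Pf4, another platelet chemokine, was at 192 to 289 FPKM in young controls and 261, 305, 467, 126 and 1579 in aged controls, a log2 change of 0.60 that missed the threshold (limma adjusted p = 0.47).

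Of 35 tested genes of JAK and STAT signaling, 4 rose and 1 fell, where 3.18% of all tested genes rose and 1.23% fell. Socs3, a feedback inhibitor that blocks JAK and STAT signaling, lay at 2.16, 2.72, 2.04, 3.13 and 1.96 FPKM in young and 25.2, 17.8, 18.2, 20.2 and 11.3 in aged controls (2.49, SE 0.18, limma adjusted p = 1.60e-07). The other rises were Socs1, the kinase Pim2 and the transcription factor Cebpd. Cebpd went from 0.78 ± 0.15 to 4.45 ± 1.70 FPKM and Pim2 from 32.3 ± 8.3 to 75.6 ± 18.3 FPKM; Socs1 rose by 0.87 and lost the test in 6 of 10 omissions (largest limma adjusted p = 0.06). The member that fell was Ebi3, a cytokine subunit shared by interleukins 27 and 35. Ebi3 stood at 43.2, 51.9, 44.2, 42.4 and 42.8 FPKM in young and 11.8, 12.3, 13.1, 12.03 and 11.6 in aged controls. That is a fall by 1.80 (SE 0.14, limma adjusted p = 3.52e-07), the smallest p among the falls named here; Gm16712, which overlaps it by position, fell too, and reads may be shared. In the TNF and NF-kB list 4 of 34 rose, led by Bcl3, a partner of NF-kB, from 9.78 ± 2.28 to 26.9 ± 4.3 FPKM. In the TGF-beta and BMP list 5 of 35 rose, among them the ligand Bmp4 (1.64) and the cell-cycle inhibitor Cdkn1a, which went from 2.93 to 4.17 FPKM in young to 6.16 to 10.8 in aged controls (0.93, limma adjusted p = 0.00308). The interferon response counted 5 rises of 53, with a median of 0.13.

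Of 31 tested metallothionein and stress genes, 4 rose and 1 fell, where 3.18% of all tested genes rose and 1.23% fell. Mt1, a metallothionein that binds zinc and copper, was at 19.99, 28.2, 29.9, 37.7 and 24.6 FPKM in young and 174, 196, 152, 120 and 151 in aged controls (2.47, SE 0.23, limma adjusted p = 3.37e-06). Its neighbour Mt2, 5514 bases away, rose by 2.48, from 1.26 ± 0.30 to 11.7 ± 2.2 FPKM. Nupr1, a small stress-induced nuclear protein, was at 12.6, 16.2, 13.3, 16.5 and 10.99 FPKM in young and 96.9, 93.8, 74.2, 97.3 and 70.04 in aged controls, with the same change of 2.54 in males and in females. Gadd45g, a growth-arrest gene, rose by 2.16 but belongs to the p53 and damage list, where 4 rose and 1 fell of 34 tested. Gpx3, a secreted peroxidase, rose by 2.37 with 55.2 FPKM in aged control 4 against 12.8 to 22.4 in the other aged controls. Hmox1, heme oxygenase 1, fell by 0.91 and lost the test in 5 of 10 omissions (largest limma adjusted p = 0.07). Of 40 tested detoxification genes 6 rose and 3 fell. Gstm2, a glutathione transferase, was at 8.78 to 17.3 FPKM in young controls, at 117, 158 and 141 in aged controls 1 to 3 and at 30.8 and 28.8 in aged controls 4 and 5 (3.04 in males, 1.44 in females). Mgst1, a membrane-bound glutathione transferase, fell from 12.5 ± 2.0 to 4.52 ± 1.02 FPKM.

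Among 38 tested lipid genes 7 rose, with a median over the list of -0.03 beside -0.02 over all genes. Of all tested genes 3.18% rose and 1.23% fell. Plscr2, a phospholipid scramblase, was at 1.98 to 2.59 FPKM in young controls and 19.5, 20.4, 18.0, 32.1 and 33.2 in aged controls (2.90). Its neighbour Plscr1 rose by 1.14, and Apoe, the lipid carrier apolipoprotein E, from 413 ± 57 to 778 ± 131 FPKM. Complement and coagulation genes gave 6 rises and 1 fall of 19. C4b, complement component 4B, was at 0.01 to 0.32 FPKM in young and 2.23 to 9.50 in aged controls (2.47), and Cfp, the complement activator properdin, fell from 6.73 ± 1.85 to 1.80 ± 0.59 FPKM.

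Of 42 pairs of adjacent tested genes that were both called, 39 moved the same way, where 72.1% of all called genes rose. Of the 42 pairs, 6 overlap by position and may share reads, all 6 of them moving the same way, and 2 lie over 1 Mb apart. No test was made of this count, and 72.1% is not the rate at which unrelated called genes would move the same way. The 42 pairs stand without the total of adjacent tested pairs, so they cannot be read as an excess. Pairs that do not overlap, chosen after their values were seen, include Mt2 and Mt1, Plscr1 and Plscr2, Ly6e and Ly6a, Fads3 and Fads2, and Hoxb6 and Hoxb5; Hoxb5 lost the test in 7 of 10 omissions (largest limma adjusted p = 0.08). Members of such pairs may share reads where their sequences are alike, which was not tested. Shisa8, a transmembrane protein, had the largest fall, from 24.5 ± 2.8 to 5.75 ± 2.73 FPKM (-2.0, SE 0.39, limma adjusted p = 0.00435), and its neighbour Tnfrsf13c, also chosen afterwards, a receptor for a B-cell survival factor, fell by 1.2.

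Genes described before as higher in aged HSCs are given as a description only: that list was chosen with results of these and other aging data known, so its count is no check of the labels and not independent evidence of direction. Of 46 tested, 24 rose, with a median of 0.94. In the matching list of genes lower with age, 8 of 27 fell (median -0.60). Without aged controls 4 and 5, 13 fell, where 9.21% of all tested genes fell. Haao, an enzyme of tryptophan breakdown, and Kcnk12, a potassium channel, were among them, with falls by 1.72 and 1.55.

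DNA replication and mitosis genes lay lower with age in most aged libraries. All 48 tested replication genes had a log2 change below 0, with a median of -0.54, but 5 passed the test. Of 43 mitosis genes 40 were below 0 (median -0.55) and 4 passed. Over all tested genes 47.8% had a change above 0, the median was -0.02, and 1.23% fell by the test. The mean level of the replication genes on the log2(FPKM + 1) scale was 4.55 to 4.71 in young controls, 4.08, 4.02, 4.18 and 3.96 in aged controls 1 to 4 and 4.67 in aged control 5. For mitosis it was 3.80 to 4.05, then 3.21, 3.09, 3.25 and 3.12, and 4.13 in aged control 5. Thus 4 aged libraries lay below all young ones and aged control 5 lay inside or above the young range. Without aged controls 4 and 5, 19 replication and 26 mitosis genes fell, where 9.21% of all tested genes fell. Cdk1, the kinase that starts mitosis, was at 23.2 to 26.9 FPKM in young controls, at 13.3, 12.9, 16.15 and 11.3 in aged controls 1 to 4 and at 28.5 in aged control 5; it lost the test in 9 of 10 omissions (largest limma adjusted p = 0.13). Stmn1, a microtubule regulator, was at 311.5 to 398 FPKM in young controls, at 199 to 229 in aged controls 1 to 4 and at 307 in aged control 5, which was the highest aged library and below every young one. It lost the test in 5 of 10 omissions (largest limma adjusted p = 0.07). Prim1, a primase subunit, was at 13.3 to 20.6 FPKM in young controls, at 7.55 to 9.88 in aged controls 1 to 4 and at 16.6 in aged control 5, and lost the test in 8 of 10 omissions (largest limma adjusted p = 0.10).

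**Figure D3:**
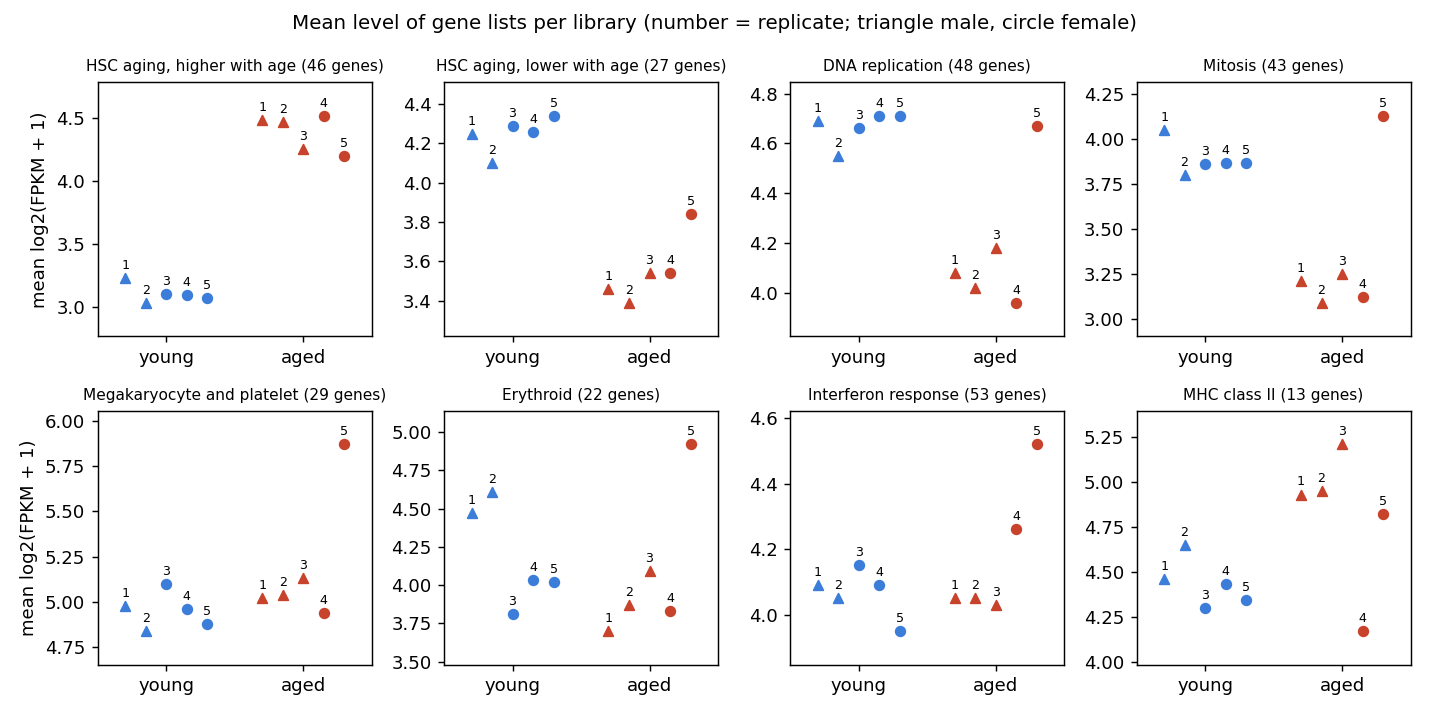
Mean log2(FPKM + 1) of the tested members of 8 gene lists in each control library (numbers are replicates, triangles male, circles female; axes differ between panels). Aged control 5 lies with or above the young libraries for DNA replication and mitosis and is the highest library for the megakaryocyte, erythroid and interferon lists.

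Aged control 5 also stood highest for the megakaryocyte and erythroid lists, but not for the other lineage lists. For myeloid priming its mean was 3.74, level with aged control 4 and below the rest of the controls, and for lymphoid priming it was 3.44, within the aged range of 3.31 to 3.46. The mean of the megakaryocyte and platelet list was 5.87 there against 4.84 to 5.13 in the other 9 controls, and that of the erythroid list 4.92 against 3.70 to 4.61. Genes picked after their values were seen show the size: Car1, a carbonic anhydrase of erythroid progenitors, was at 299 FPKM in aged control 5, 3.11 to 14.9 in aged controls 1 to 4 and 37.4 to 86.3 in young controls. Klf1, an erythroid transcription factor, was at 37.9 FPKM against 5.03 to 6.54 and 8.94 to 20.4. The interferon list was highest in aged controls 5 (4.52) and 4 (4.26) against 3.95 to 4.15 in the other controls. In the MHC class II list, which presents antigen, aged control 4 was the lowest library (4.17) and the other aged controls were at 4.82 to 5.21 against 4.30 to 4.65 in young controls. There 1 of 13 genes rose, H2-Eb1, from 45.3 ± 8.9 to 134 ± 60 FPKM, and 7 rose without aged controls 4 and 5, where 8.34% of all tested genes rose. For H2-Eb1 the groups overlapped, with 47.83 FPKM in aged control 4 and up to 56.75 in young controls, and it lost the test in 4 of 10 omissions (largest limma adjusted p = 0.06). The part of these library differences in the age results was not tested beyond leaving the libraries out.

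**Figure D4:**
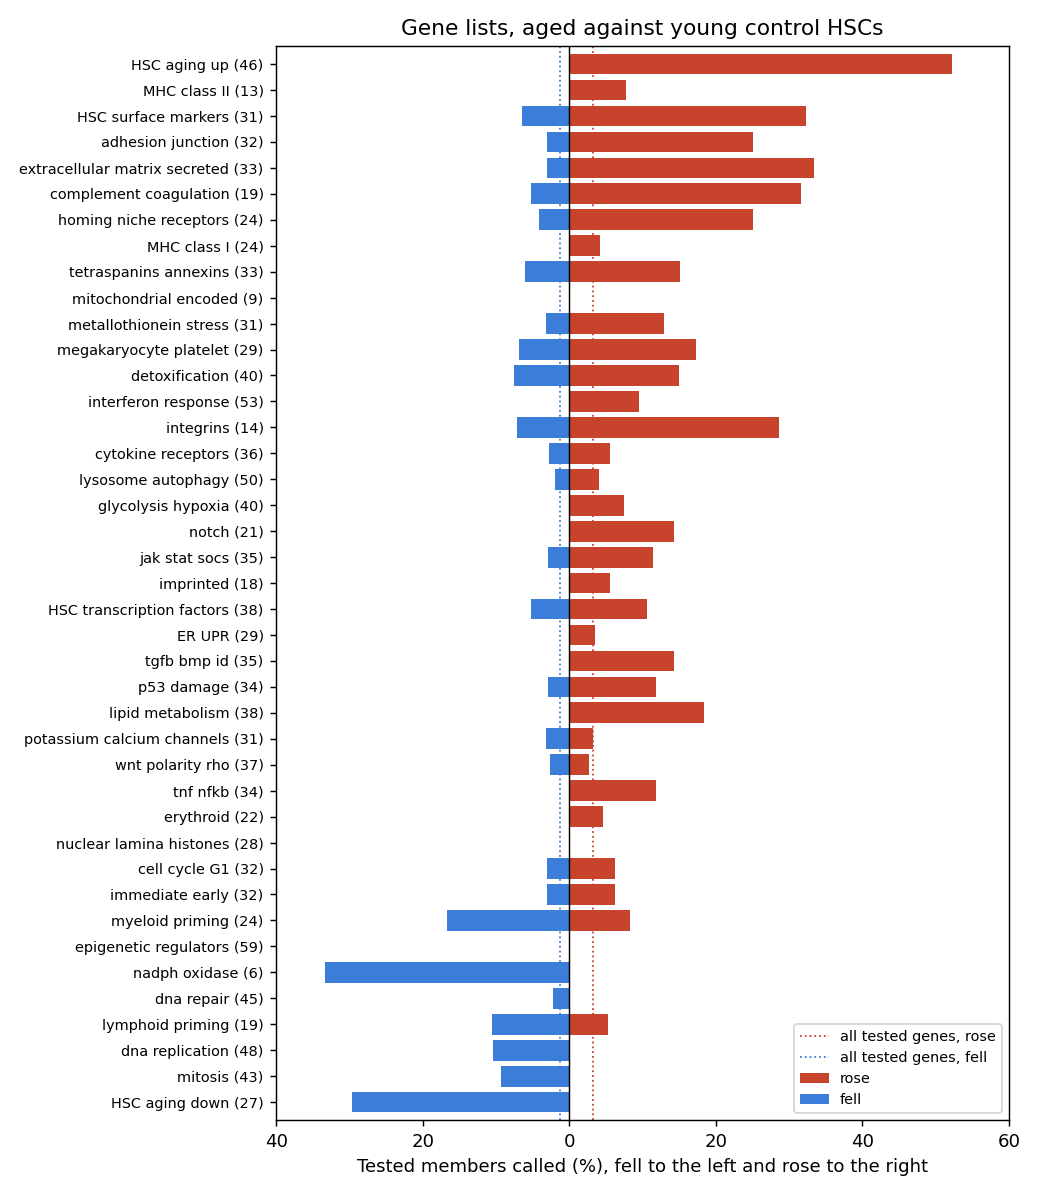
Share of tested members (%) that rose (right) or fell (left) in each of 41 gene lists, ordered by median log2 change, with the number tested in parentheses. Dotted lines give the share over all tested genes, 3.18% risen and 1.23% fallen.

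Among the 41 gene lists that are not cell type markers, 3 had no member that passed the limma test. The counts below without aged controls 4 and 5 stand beside 8.34% risen and 9.21% fallen over all tested genes in that setting. Of 59 tested epigenetic regulators 0 were called (18 had an unadjusted p under 0.05, and voom on recovered reads called 0). Of them 43 had a change below 0, with a median of -0.21, where 47.8% of all tested genes were above 0. Without aged controls 4 and 5, 9 fell and 2 rose. Of 28 lamina and histone genes 0 were called (6 at an unadjusted p under 0.05, 1 by voom), and of 9 mitochondrially encoded genes 0 (0 and 0). In the DNA repair list 1 of 45 genes fell, and 11 fell without aged controls 4 and 5. Of 50 lysosome and autophagy genes 2 rose and 1 fell, against 14 and 2 without aged controls 4 and 5.

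The age change was then read separately in each sex. The sexes share no library, but both changes come from 1 fit with a common residual variance for each gene, so a gene of small spread tends to be called in both. Within male libraries 457 genes rose (4.03%) and 422 fell (3.72%), 7.75% in all, and within female libraries 83 rose (0.732%) and 26 fell (0.229%), 0.961% in all. Of the 457 that rose in males, 413 (90.4%) were higher with age in females too, against 46.4% of all tested genes. Of the 422 that fell in males, 328 (77.7%) were lower in females, against 53.6% of all. Their median change was 1.03 in males and 0.46 in females for the rises, and -0.93 and -0.15 for the falls. All 83 rises and all 26 falls of the females had the same sign in the males, against 50.5% and 49.5% of all tested genes. The difference between the sexes itself called 0 genes in limma (998, or 8.8%, had an unadjusted p under 0.05), and 11 with the 10 control libraries alone. Cldn5 had a change of 4.47 in males and 2.78 in females, a difference that missed the threshold (limma adjusted p = 0.36). The aged females are aged controls 4 and 5, so sex cannot be told apart from what sets these libraries aside.

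**Figure D5:**
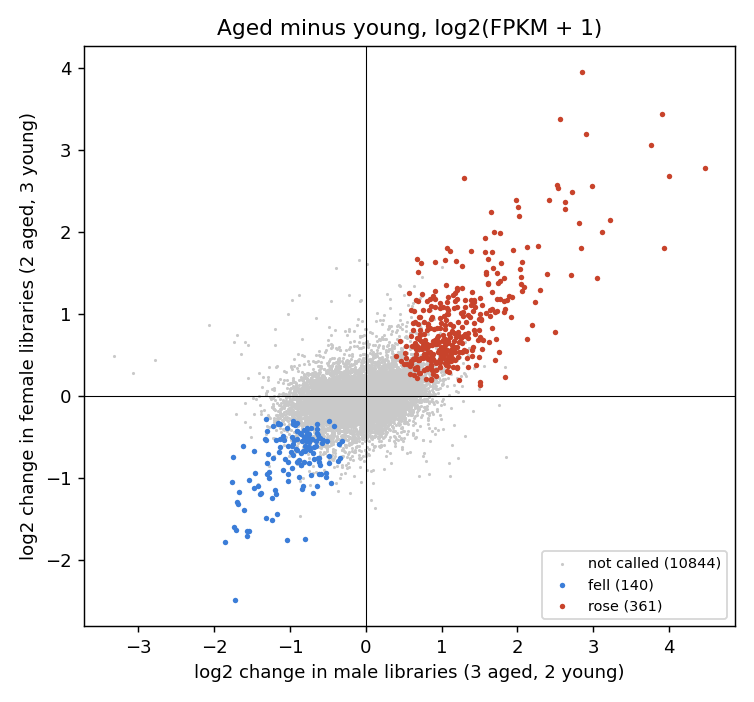
Log2 change with age in female libraries (vertical) against male libraries (horizontal) for 11345 tested genes, with the 361 genes that rose and the 140 that fell in colour. All coloured points lie in the quadrants of equal sign, and many lie nearer 0 on the female axis. The coloured genes were called from these same libraries, which favours equal signs.

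Transcript length moved with the age change. Across the tested genes the log2 change correlated with the log10 of exon length at -0.24, at -0.28 in males and at -0.02 in females, a description over genes that share libraries. Per library this value was -0.23 to -0.33 in aged controls 1 to 3, 0.23 and 0.09 in aged controls 4 and 5, and between -0.20 and 0.37 in young controls. The median exon length was 2935 nucleotides for risen, 3490 for fallen and 3847 for all tested genes. Its part in the calls was not tested.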

How the data were processed

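For 20696 genes in 15 libraries the authors deposited FPKM to 2 decimals. The submitters' processing notes name STAR, edgeR and FastQC 0.11.5, and GRCm38 (mm10) as build. For counting settings and strand: not given in the sources used here. Symbols, positions and lengths came from GENCODE M21 (20696 matched). Here the values were turned into log2(FPKM + 1), which understates changes of low genes. Groups were compared with limma 3.58.1 in R 4.3.3 (two-sided, intensity-dependent prior variance, 15 libraries in 1 fit, no covariate), with Benjamini-Hochberg adjustment over 11345 genes. The fit was tested on simulated data. Reads were recovered from FPKM steps, with 97.7% to 98.6% of held-out values whole within 0.1 reads, for voom as an alternative.

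The members, gene lists and tests were chosen with earlier results of these data known. Named genes were the 15 largest rises and falls among called genes with at least 2 FPKM in the higher group, the 10 largest gains and losses in FPKM, and called members of each list with the smallest p, at most 4 per direction; the ranking skipped pseudogenes, model names and sex-linked genes. Of 136 such genes, the 68 that the report describes were followed through every alternative in which they were tested; some genes are not reported here. The alternatives changed the pseudocount, filter, scaling, weights, covariates, libraries and the pairing of columns with titles.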

Additional observations from a re-analysis of the deposited data

Results flagged for a closer look

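A library was singled out where its gap to the nearest of the others exceeded 0.71 of the range of its group of 5 (Dixon's test); chance does this for about 1 in 20 groups. Of 274 groups looked at (133 genes and 4 library measures in each age group), 18 were singled out, 7 in young and 11 in aged controls. Aged control 5 accounts for 7 of these and aged control 4 for 4.

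Aged control 5 was far above the other aged controls for Stmn1 (307 FPKM, next 229), Prim1 (16.6 FPKM, next 9.88), Cdk1 (28.5 FPKM, next 16.15), Chek1 (2.11 FPKM, next 0.88), Serping1 (4.87 FPKM, next 2.29). Aged control 4 was far above them for Sult1a1 (287 FPKM, next 185.5), Hoxa9 (14.99 FPKM, next 11.2), Art4 (129 FPKM, next 100), Gpx3 (55.2 FPKM, next 22.4). Among young controls the high values were Sbspon in young control 4 (1.15 FPKM, next 0.61), Ebi3 in young control 2 (51.9 FPKM, next 44.2), Tyrobp in young control 3 (11.4 FPKM, next 7.05), Bcl3 in young control 4 (13.8 FPKM, next 9.18). Low values were Mc5r in young control 2 (11.6 FPKM, next 18.45), Cebpb in aged control 5 (18.2 FPKM, next 35.6), Prim2 in young control 1 (7.05 FPKM, next 7.82), Mt2 in young control 1 (0.73 FPKM, next 1.32), Tspan17 in aged control 5 (5.67 FPKM, next 8.36). Of these, Prim1 and Prim2 are in the DNA replication list, Cdk1 and Stmn1 are in the mitosis list and Chek1 is in the p53 and damage list.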

How the results depend on the processing

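The count of 501 genes (361 risen, 140 fallen) kept within 1.5 times under pseudocounts of 0.1 and 0.5, no filter, sex as a covariate, quantile normalization, median-ratio scaling and voom. It became 265 (195 and 70) with a mean of at least 5 FPKM, where fewer genes were tested, 1011 (631 and 380) with the 10 control libraries alone, 5397 (2480 and 2917) with array quality weights, 879 (422 fallen) within males and 109 (83 and 26) within females. Chosen after seeing the data, leaving out aged controls 4 and 5 gave 1991 (946 and 1045), and leaving out labelled knockouts 2 and 5 gave 1030 (639 and 391). Labelled knockouts 2 and 5 had 2.16% and 0.68% of reads in ribosomal-RNA-like genes, against 0.16% to 0.37% in the controls. Their array quality weights, 0.223 and 0.149, were the lowest of the 15 libraries. Apart from the smaller filter and the left-out libraries, the cause of these moves was not tested. Leaving out 1 control gave 311 to 943 genes in all, 241 to 566 risen and 68 to 377 fallen. The sex difference called 0 to 8 genes in those omissions, 1 after quantile normalization and 11 with the control libraries alone.

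With the replicate block, that is replicate number as a block, 499 genes were called (348 and 151), and the sex difference called 0. Deviations of same-numbered libraries from their group means correlated at -0.109, 0.489, -0.262, -0.182 and 0.067. These values cannot decide whether the numbers pair the samples, because differences within the aged group enter them. Young control 2 gave 0.489 and 0.457 with aged controls 2 and 3, but -0.564 and -0.408 with aged controls 4 and 5. Of 68 genes followed, 65 passed with the block.

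Grouped through the descriptions, limma called 0 genes (0 risen, 0 fallen, 642 at an unadjusted p under 0.05), and that setting moves libraries between the groups. All 68 changes reversed. The genes were picked under the titles and aged controls 1 to 3 count as young there, so reversed signs were favoured in advance. As log2 changes on that grouping, genes that rose under the titles had Cldn5 -1.7, Gpr183 -1.55, Sbspon -1.65, Zg16 -1.63, Rcvrn -1.78, Matn4 -1.19, Muc1 -1.31, Plscr2 -1.32, Clu -1.13, Ramp2 -0.661, Selp -0.791, Nupr1 -1.18, Gstm2 -1.43, Socs3 -1.35, Apoe -0.448, Ly6e -0.38, Prtn3 -0.712, Mt1 -0.475, Ly6a -0.778, Hoxb5 -0.391, Itgb3 -0.85, Gprc5c -0.651, Cd38 -0.802, Vwf -0.836, Gp1bb -0.787, Cd53 -0.757, Cebpb -0.618, Cebpd -0.929, Pim2 -0.605, Socs1 -0.555, Bcl3 -0.803, Bmp4 -0.707, Cdkn1a -0.51, Jam2 -0.48, Epcam -0.603, Itga2b -0.93, Agtr1a -0.995, Cysltr2 -0.786, Gadd45g -0.967, Mt2 -0.718, Gpx3 -0.25, Plscr1 -0.646, Fads3 -0.0635, H2-Eb1 -0.851, C4b -1.51, Procr -0.536, Klrb1c -1.03. Genes that fell under the titles had Shisa8 0.85, Ebi3 0.861, Ncf4 0.747, Haao 0.825, Flt3 1.06, Ctss 0.988, Kcnk12 0.594, Rnase6 0.604, Ppbp 0.668, Tyrobp 0.569, Ctla2a 0.627, Stmn1 0.365, Cd34 0.428, Ncf1 0.79, Itgb5 0.563, Col4a2 0.555, Prim1 0.572, Cdk1 0.27, Hmox1 0.111, Mgst1 0.653, Cfp 0.833.

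Under the other alternatives over both sexes no followed gene changed sign. Depth limits low genes most, and at a given FPKM a shorter gene holds fewer reads. In young controls the recovered reads were 2 to 16 for Rcvrn, 2 to 34 for C4b and 8 to 24 for Mt2, but 39 to 111 for Gpr183. Genes under the filter were not tested.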
